A study of Mus musculus with 25 samples.

Results

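The Eph receptors and their ephrin ligands described here were 10 genes, the receptors Epha2, Epha3, Epha4, Epha5, Epha7, Ephb2 and Ephb4 and the ligands Efna1, Efnb1 and Efnb2, chosen by name from the 22 Eph receptor and ephrin genes among the 55385 genes in the files. They were followed in 5 murine melanoma cell lines with 5 RNA-sequencing libraries each, 25 in all. WT31 comes from Tyr::NrasQ61K/°; INK4a-/- mice, in which the tyrosinase promoter drives mutant Nras in the pigment lineage and Ink4a is deleted. B16F10 luc2 is a commercially obtained derivative of B16F10 with a luciferase gene. RET arose in MT/RET transgenic mice, whose RET oncogene is under the metallothionein-I promoter. D4M was obtained from mice carrying Tyr::CreER and BrafCA, among other alleles, in which tyrosinase-driven Cre activates mutant Braf, and HCmel12 from a primary tumour of an HGF-CDK4(R24C) mouse. WT31, B16F10 luc2 and RET are the lines of high or intermediate hepatic metastatic efficiency (HIM-melanoma), and D4M and HCmel12 those of low efficiency (LM-melanoma), so each genotype was represented by a single line. All cells were untreated and were harvested from culture at 50% confluency. D4M and HCmel12 were each kept in a medium of their own, so line and medium cannot be told apart for them.

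Eph receptors are the largest family of receptor tyrosine kinases. They bind ephrins on neighbouring cells: ephrin-A ligands are held in the membrane by a lipid anchor and mainly bind EphA receptors, while ephrin-B ligands span the membrane and mainly bind EphB receptors and EphA4. Contact triggers forward signalling in the receptor-bearing cell and reverse signalling in the ephrin-bearing cell, which act largely through small GTPases on adhesion, repulsion and migration, and the family guides neural crest cells, the precursors of melanocytes, through the embryo.

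The libraries held 24199083 to 25843286 estimated counts. In pairwise correlations over the tested genes, 25 of 25 libraries were closest to a library of their own line, with r of at least 0.9785 within lines and at most 0.948 between lines. The melanoma label was checked against 9 melanocyte markers. Their summed level was 12140 to 30200 CPM (counts scaled to 1000000 per library after TMM normalisation) in the libraries of WT31, B16F10 luc2, RET and HCmel12, and 6.54 to 59.7 CPM in those of D4M, where 4 of the 9 markers reached a mean of 1 CPM and Ednrb was at 0. D4M replicate 1 had the highest of these D4M sums, with 588 counts of Tyrp1, and without it only Mitf, 1 of the 9, had a mean of at least 1 CPM there, a check added after seeing the data. Among 5 fibroblast markers, Col3a1 (472 CPM), Col1a1 (144 CPM) and Pdgfra (59.5 CPM) were expressed in D4M. Dcn (0.334 CPM) was low and Lum was at 0 in that line. Leukocyte markers stayed below 1 CPM in every library sum, and of the keratinocyte markers only Krt10 reached 1 CPM, in WT31 and D4M. How far these marker differences bear on the Eph and ephrin levels of D4M was not tested.

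Levels below are CPM, and 3 counts in a library, taken as the smallest detectable amount, correspond to 0.11 to 0.14 CPM. As these are bulk libraries, fewer cells with a transcript and less of it per cell cannot be told apart. Lines were compared by voom and limma across 15247 genes, with p-values adjusted by the Benjamini-Hochberg method within each pair of lines, and a gene was called at an adjusted p under 0.05. All 10 genes were tested. Since the libraries are named only as biological replicates of 1 line, p-values measure the spread between these cultures.

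The comparisons of HIM-melanoma with LM-melanoma ask which genes differ between the classes. All HIM-melanoma lines shared a medium in which neither LM-melanoma line was kept. Metastatic efficiency, medium and genotype therefore cannot be told apart in them. Of the 10 genes, 9 were called between WT31 and D4M (1 higher and 8 lower in WT31), where 76.1% of all genes tested were called, 37.5% higher and 38.6% lower. Between B16F10 luc2 and D4M, 10 were called (4 higher, 6 lower; background 77.7%, with 38.8% higher and 38.9% lower), and between RET and D4M 9 were called (4 higher, 5 lower; background 77.1%, with 38.8% and 38.3%). Against HCmel12, 8 were called for WT31 (2 higher, 6 lower; background 70.4%, with 36.1% and 34.3%), 10 for B16F10 luc2 (5 higher, 5 lower; background 69.1%, with 35.3% and 33.8%) and 10 for RET (6 higher, 4 lower; background 67.2%, with 34% and 33.3%). Most genes differed between any pair of these lines, so a call alone says little about the family. The median absolute log2 fold change of the 10 genes was 1.67 to 3.10 in these 6 comparisons and 0.49 to 0.73 over all genes tested. This is a description only, since the 10 genes were chosen with earlier results of these data known and the large fold changes of Epha3, Epha4, Epha5, Epha7 and Efnb2 include lines with few counts. Within the classes, 9 genes were called between WT31 and B16F10 luc2 (background 72.8%), 8 between WT31 and RET (background 73.2%), 7 between B16F10 luc2 and RET (background 51.5%) and 8 between D4M and HCmel12 (background 72.5%). In 4 cases, 2 of them called, both lines of a pair were at or under 3 counts per library on average, namely Epha4 between WT31, D4M and HCmel12 and Epha5 between D4M and HCmel12. Those fold changes rest on too few counts to be read and are left out of the map.

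Changes of 1 sign in all 6 comparisons of HIM-melanoma with LM-melanoma were found for 3 of the 10 genes, against 12.9% of all genes tested. Ephb4 and its ligand Efnb2 were lower in the HIM-melanoma lines (background for this direction 6.4%), and Epha5 was higher (background 6.53%). The place of Epha5 is the weakest of these: its B16F10 luc2 calls (adjusted p = 0.029 and 0.032, limma) were lost on leaving out single libraries, and that against D4M with DESeq2 (adjusted p = 0.083), leaving 2 of the 10 genes. Efnb1 and Efna1 were called lower in 5 of the 6. The remaining difference of each was not called. It was -0.05 for Efnb1 in WT31 against HCmel12, whose sign turned in alternatives given at the end, and -0.33 for Efna1 in RET against D4M. The Efna1 call between WT31 and D4M (adjusted p = 0.045, limma) was lost in the alternatives given with that gene below. For Epha2, Epha3, Epha7 and Ephb2 the sign turned on which line was compared. This was plainest for Epha2, which stood below D4M and above HCmel12 in each HIM-melanoma line. Epha4 was called higher for B16F10 luc2 and RET against both LM-melanoma lines, while its WT31 values rest on too few counts to be read. The map of fold changes shows the blocks of opposite sign left by Epha2, Epha3 and Epha7, beside the single sign of Ephb4 and Efnb2.

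**Figure D1:**
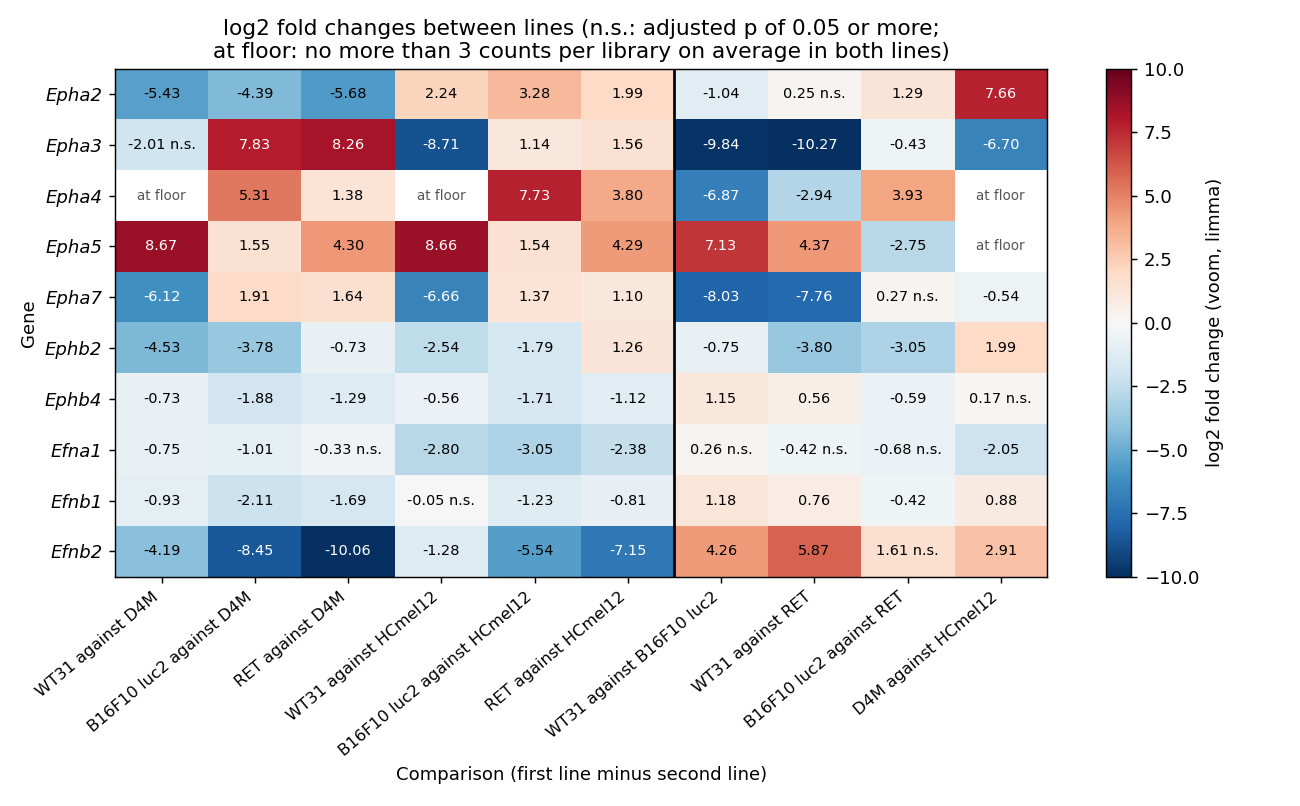
log2 fold changes of the 10 genes (rows) in the 10 pairs of lines (columns, first line minus second line), with the 6 comparisons of HIM-melanoma with LM-melanoma left of the black line; red is higher and blue lower in the first line, and the values were fitted with voom and limma. Ephb4 and Efnb2 are blue in all 6, while Epha2 is -5.68 to -4.39 against D4M and 1.99 to 3.28 against HCmel12.

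The start regions of 5 of the genes are shown first. They are Epha2 and Efnb2, both highest in D4M, and Epha3, Epha7 and Epha5, EphA receptors with a mean above 10 CPM in at least 1 HIM-melanoma line, and they were chosen with their levels known. Each is a RefSeq window of 300 bases on GRCm38.p6, from 250 bases before to 50 bases after the annotated start, written 5′ to 3′ on the strand of the gene with CpG dinucleotides in capitals. The windows are chr4:141300971-141301270 on the plus strand for Epha2, chr8:8661193-8661492 on the minus strand for Efnb2, chr16:63864126-63864425 on the minus strand for Epha3, chr4:28812881-28813180 on the plus strand for Epha7, the first of its 2 entries, and chr5:84417333-84417632 on the minus strand for Epha5.
Epha2: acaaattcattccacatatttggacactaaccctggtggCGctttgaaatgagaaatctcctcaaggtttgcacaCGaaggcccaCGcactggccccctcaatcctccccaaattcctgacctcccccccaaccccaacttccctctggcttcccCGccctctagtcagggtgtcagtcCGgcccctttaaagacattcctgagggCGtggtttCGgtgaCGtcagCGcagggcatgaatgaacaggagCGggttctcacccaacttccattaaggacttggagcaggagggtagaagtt
Efnb2: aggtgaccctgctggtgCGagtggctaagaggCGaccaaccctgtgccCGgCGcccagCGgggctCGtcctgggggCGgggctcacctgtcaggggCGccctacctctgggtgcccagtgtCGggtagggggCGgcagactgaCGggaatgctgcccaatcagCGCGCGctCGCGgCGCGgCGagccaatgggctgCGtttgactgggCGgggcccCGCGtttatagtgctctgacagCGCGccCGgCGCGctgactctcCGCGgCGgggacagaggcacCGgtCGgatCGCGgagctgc
Epha3: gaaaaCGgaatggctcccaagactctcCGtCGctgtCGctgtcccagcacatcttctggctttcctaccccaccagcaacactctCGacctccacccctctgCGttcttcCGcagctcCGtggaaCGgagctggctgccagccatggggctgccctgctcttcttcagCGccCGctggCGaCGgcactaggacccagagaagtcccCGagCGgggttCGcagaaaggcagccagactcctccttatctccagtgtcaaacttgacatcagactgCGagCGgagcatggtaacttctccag
Epha7: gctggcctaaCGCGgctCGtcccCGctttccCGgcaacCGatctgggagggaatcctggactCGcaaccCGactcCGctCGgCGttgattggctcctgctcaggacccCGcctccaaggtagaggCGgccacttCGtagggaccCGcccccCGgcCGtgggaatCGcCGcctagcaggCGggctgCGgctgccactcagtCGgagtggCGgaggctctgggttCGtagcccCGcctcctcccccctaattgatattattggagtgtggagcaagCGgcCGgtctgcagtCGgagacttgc
Epha5: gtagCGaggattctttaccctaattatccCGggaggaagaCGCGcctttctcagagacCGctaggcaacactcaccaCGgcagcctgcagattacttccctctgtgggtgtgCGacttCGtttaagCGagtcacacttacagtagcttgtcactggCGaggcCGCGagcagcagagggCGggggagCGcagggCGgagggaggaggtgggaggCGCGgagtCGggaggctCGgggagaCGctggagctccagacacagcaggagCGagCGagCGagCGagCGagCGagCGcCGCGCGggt
Epha2 held 10 CpG dinucleotides, Epha3 18, Epha7 28, Epha5 30 and Efnb2 35, against a median of 7 (quartiles 3 and 20) over 32851 windows of this length. Epha2 and Efnb2, both highest in D4M, thus had the fewest and the most of these 5. Ephb2, Ephb4 and Efnb1, which also had their highest mean in D4M, held 24, 14 and 14. Windows matched all 10 genes, and the other 5 held 14 to 24. On either strand, none of the 10 held the AP-1 element TGACTCA (5.2% of all windows) or the E-box CACGTG (7.15%). The letters CATGTG (14.2% of all windows) were found for Ephb4 alone and TATAAA (13.6%) for Efnb2 alone. The GC box GGGCGG (35.7% of all windows) was found for Epha2, Epha4, Epha5, Epha7, Ephb4, Efna1 and Efnb2. Epha3, Ephb2 and Efnb1 did not hold it. No methylation or binding was measured here, and these matches describe the letters only.

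Epha2, on chromosome 4 at 141301240 to 141329384 of GRCm38, encodes the receptor of ephrin-A1 best known from epithelia and carcinomas. It was high in D4M alone. The 5 D4M libraries held 249, 262, 269.6, 210.2 and 204 CPM (mean 239 ± 30.2 SD, n = 5). B16F10 luc2 held 12.1, 11.8, 9.62, 13.6 and 10.05 CPM, and WT31 6.07, 5.28, 4.65, 7.84 and 4.32 CPM. In RET the values were 3.32, 4.42, 8.70, 3.28 and 5.01 CPM, and in HCmel12 1.25, 0.677, 2.39, 1.02 and 0.976 CPM. The lowest D4M library was thus far above the highest library of any other line, and every HCmel12 library was below every library of the rest. The log2 fold change of WT31 against D4M was -5.43 ± 0.18 SE (adjusted p = 1.6e-19, limma), that of B16F10 luc2 -4.39 ± 0.14 (adjusted p = 1.4e-19) and that of RET -5.68 ± 0.19 (adjusted p = 2.2e-19). Against HCmel12 the same lines were higher, by a log2 fold change of 2.24 ± 0.34 for WT31 (adjusted p = 1.7e-06, limma), 3.28 ± 0.32 for B16F10 luc2 and 1.99 ± 0.34 for RET. The LM-melanoma lines themselves lay furthest apart, at 7.66 ± 0.30 for D4M against HCmel12 (adjusted p = 6.2e-18, limma). WT31 and RET, neighbours in this order, did not differ beyond their spread (log2 fold change 0.25 ± 0.24, adjusted p = 0.36, limma). RET replicate 3 was the highest of its line and also had the most Col1a1 (2055 counts) and Pdgfra (48 counts) there, while Flt1 and Col3a1 had 2 and 5 counts in that library. All 4 were abundant in D4M, and their part in the Epha2 level of that library was not tested.

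Epha3, on chromosome 16 at 63543534 to 63864175, encodes a receptor of ephrin-A5 that acts in cell positioning. It was abundant in RET, B16F10 luc2 and HCmel12 and low in D4M and at the detection limit in WT31. RET held 113, 92.05, 80.5, 119 and 115 CPM, and B16F10 luc2 57.2, 89.3, 96.4, 82.5 and 64.5 CPM. HCmel12 held 38.6, 36.7, 48.7, 26.7 and 27.4 CPM. D4M had 0.679, 0.533, 0.089, 0.178 and 0.468 CPM, and WT31 0.0759, 0.0759, 0, 0.115 and 0.148 CPM. The libraries of the 3 expressing lines and of the 2 others did not overlap. WT31 had 11 counts in its 5 libraries together against 13328 in RET, a ratio of pooled CPM of 1240 (95% counting interval 693 to 2485, which covers counting error only). The split ran across the metastatic classes: RET was above D4M by a log2 fold change of 8.26 ± 0.60 (adjusted p = 1.7e-12, limma), whereas WT31 was below HCmel12 by -8.71 ± 0.79 (adjusted p = 2.7e-10). B16F10 luc2 and RET overlapped and differed slightly (-0.43 ± 0.15, adjusted p = 0.017, limma), a call that was lost without B16F10 luc2 replicate 1 or 5 or RET replicate 4. D4M and WT31 were not called apart (-2.01 ± 0.98 for WT31 against D4M, adjusted p = 0.066, limma). They were called apart with DESeq2 (2.5e-05), edgeR's quasi-likelihood test (0.0095) and the replicate number as a block (0.021, limma). Leaving out D4M replicate 3 (0.031, limma) or B16F10 luc2 replicate 1 (0.049, limma) also gave a call.

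Epha4, on chromosome 1 at 77367185 to 77515088, encodes the receptor that binds ligands of both classes. Only B16F10 luc2 had it at more than trace level, with 6.54, 5.10, 5.48, 6.39 and 6.07 CPM. RET held 0.197 to 0.632 CPM, D4M 0.0888 to 0.213 CPM and WT31 0 to 0.0769 CPM. HCmel12 had 2 counts, both in replicate 2, and none in the other libraries. B16F10 luc2 stood above RET by a log2 fold change of 3.93 ± 0.26 (adjusted p = 2.4e-12, limma) and above D4M by 5.31 ± 0.33 (adjusted p = 5.8e-14). Its ratio of pooled CPM to HCmel12, 368 (95% counting interval 101 to 3042), rests on the 2 counts of HCmel12 replicate 2, which are under the detection limit, and has no value without that library.

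Epha5, on chromosome 5 at 84054761 to 84417382, encodes a receptor known mainly from neurons. It was a WT31 gene in these lines, at 28.7, 30.6, 25.02, 21.99 and 20.7 CPM (mean 25.4 ± 4.22 SD, n = 5). RET followed with 0.834, 1.12, 1.35, 1.06 and 1.81 CPM. B16F10 luc2 held 0.126 to 0.249 CPM, D4M 0 to 0.225 CPM and HCmel12 0 to 0.0895 CPM. WT31 did not overlap with any line, nor did RET, and D4M and HCmel12 were both at the detection limit. WT31 was above RET by a log2 fold change of 4.37 ± 0.24 (adjusted p = 1.1e-14, limma), and its ratio of pooled CPM to HCmel12 was 525 (95% counting interval 241 to 1432). RET was above D4M by 4.30 ± 0.55 (adjusted p = 8.8e-08) and above HCmel12 by 4.29 ± 0.54 (adjusted p = 1.1e-07). The place of Epha5 among genes with 1 sign in all 6 comparisons rested on B16F10 luc2, which had 20 counts in 5 libraries. That line was called against D4M at an adjusted p of 0.029 and against HCmel12 at 0.032 (limma). Either call was lost in its own comparison without B16F10 luc2 replicate 4, without D4M replicate 2 or 5, or without HCmel12 replicate 1, 4 or 5, and that against D4M also with edgeR's quasi-likelihood test (adjusted p = 0.092). Epha5 was therefore highest in WT31, with RET next at a far lower level, and had too few counts in B16F10 luc2 to place that line firmly.

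Epha7, on chromosome 4 at 28813131 to 28967499, encodes another receptor with roles in neural patterning. It followed the order of Epha3 in part, being lowest in WT31 and highest in B16F10 luc2 and RET. B16F10 luc2 held 13.6, 12.8, 15.5, 15.3 and 12.5 CPM, and RET 11.2, 10.95, 11.7, 11.8 and 11.8 CPM. The libraries of these 2 lines did not overlap, but the difference was not called (log2 fold change 0.27 ± 0.13, adjusted p = 0.082, limma). It was called when only these lines were fitted (0.0085, limma) and on log2(TPM + 0.1) or log2(TPM + 1) (0.031 and 0.0031, limma). HCmel12 had 6.86, 5.18, 8.14, 3.87 and 3.94 CPM, and D4M 3.03, 4.58, 3.69, 3.55 and 3.66 CPM. These overlapped and differed by -0.54 ± 0.20 for D4M against HCmel12 (adjusted p = 0.018, limma), a call lost without D4M replicate 1 or HCmel12 replicate 1 or 3 and on log2(TPM + 0.1) or log2(TPM + 1) (adjusted p = 0.11 and 0.081). WT31 had 7 counts in all 5 libraries, and the ratio of pooled CPM of B16F10 luc2 to WT31 was 262 (95% counting interval 127 to 652). D4M thus had Epha7 while its Epha3 stayed at or below 0.679 CPM, the libraries of RET, B16F10 luc2 and HCmel12 had both, and WT31 had neither above 0.148 CPM.

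**Figure D2:**
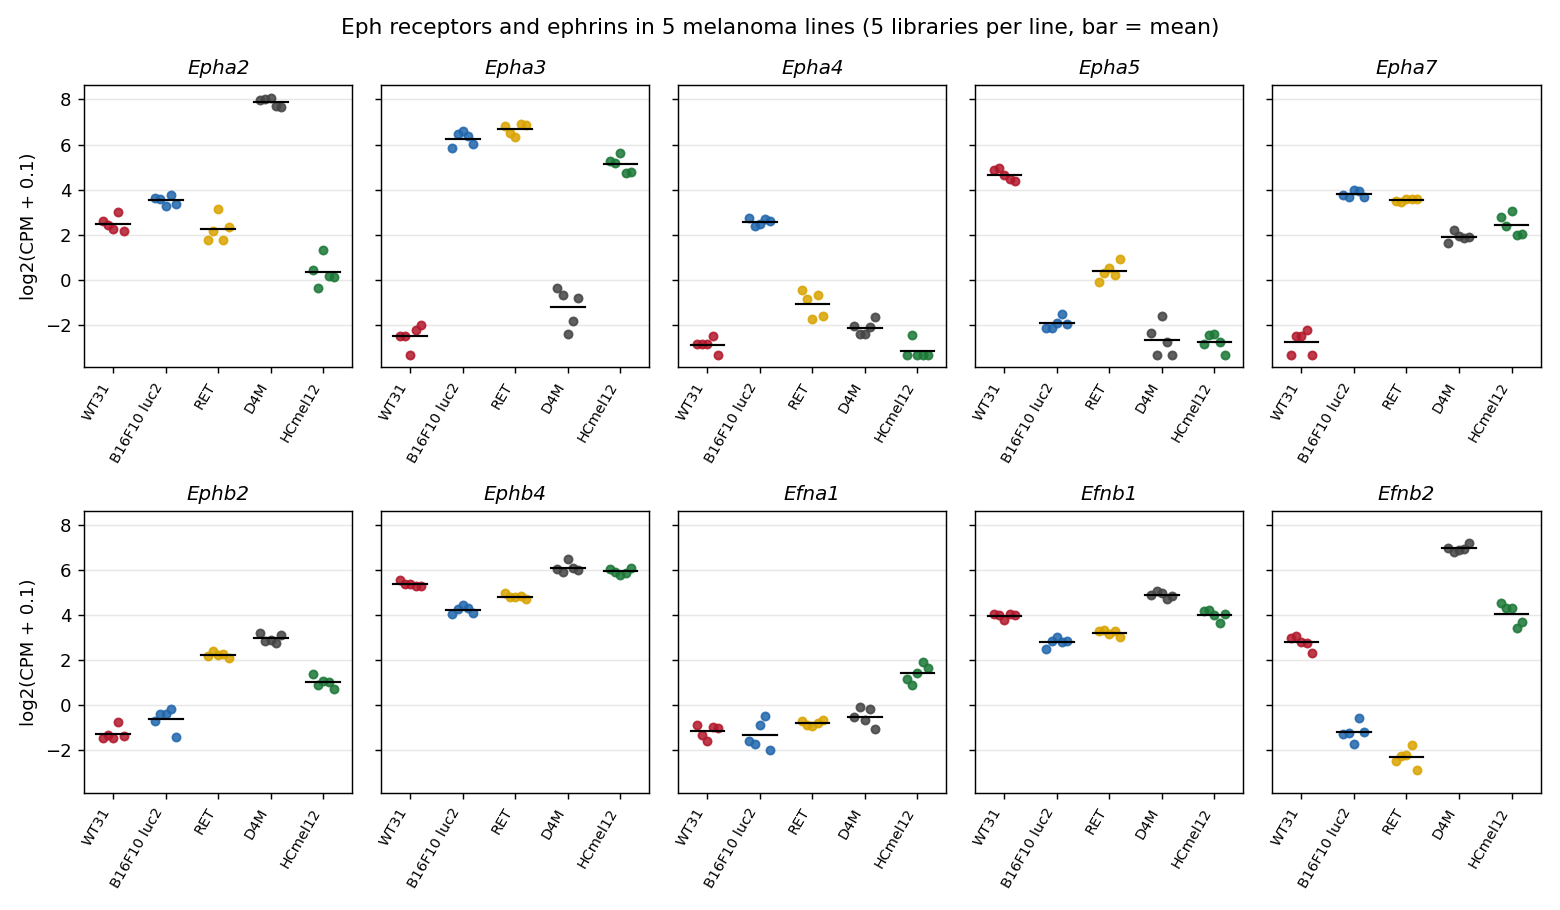
Levels of the 10 genes in every library as log2(CPM + 0.1), with the 5 lines on the x axis, 1 point per library and a bar at the mean. Epha2 and Efnb2 stand highest in D4M, Epha3 separates RET, B16F10 luc2 and HCmel12 from D4M and WT31, and Epha5 stands highest in WT31.

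Among the EphB receptors, Ephb2, on chromosome 4 at 136647539 to 136835988, encodes a receptor of ephrin-B ligands that can also bind ephrin-A5. Its order ran D4M, RET, HCmel12, B16F10 luc2, WT31, and it was the only one of the 10 genes called in all 10 pairs of lines, against 7.19% of all genes tested. D4M held 9.05, 7.24, 7.30, 6.75 and 8.65 CPM, and RET 4.55, 5.24, 4.61, 4.80 and 4.24 CPM. HCmel12 had 1.55 to 2.53 CPM, B16F10 luc2 0.282 to 0.784 CPM and WT31 0.266 to 0.500 CPM. Overlap occurred between the last 2 lines, whose call (log2 fold change -0.75 ± 0.29 for WT31 against B16F10 luc2, adjusted p = 0.021, limma) was lost without B16F10 luc2 replicate 4 and on log2(TPM + 0.1) or log2(TPM + 1) (adjusted p = 0.15 and 0.48). RET was below D4M by -0.73 ± 0.12 (adjusted p = 5.7e-06) and above HCmel12 by 1.26 ± 0.16 (adjusted p = 8.7e-08).

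Ephb4, on chromosome 5 at 137350109 to 137378669, encodes the ephrin-B2 receptor known as a marker of veins. It was the most evenly expressed receptor, with line means from 18.98 to 70.1 CPM. D4M held 66.1, 60.9, 90.3, 68.2 and 65.2 CPM, and HCmel12 66.9, 61.1, 54.8, 59.4 and 67.6 CPM. WT31 held 47.4, 41.9, 41.7, 39.5 and 39.1 CPM, RET 31.8, 28.1, 27.6, 28.6 and 26.5 CPM, and B16F10 luc2 16.5, 19.6, 21.8, 19.7 and 17.2 CPM. Every library of D4M and HCmel12 lay above every library of the HIM-melanoma lines. The log2 fold changes against D4M were -0.73 ± 0.09 for WT31 (adjusted p = 2.5e-08, limma), -1.88 ± 0.10 for B16F10 luc2 (adjusted p = 2.4e-15) and -1.29 ± 0.09 for RET (adjusted p = 1.1e-12). Against HCmel12 they were -0.56 ± 0.09, -1.71 ± 0.10 and -1.12 ± 0.09 (adjusted p = 2.5e-06, 3.8e-14 and 3.9e-11, limma). D4M and HCmel12 overlapped and were not called apart (0.17 ± 0.08, adjusted p = 0.074; 0.022 without D4M replicate 2 and 0.049 without D4M replicate 5), and this small difference became -0.01 when CPM were scaled by library size alone. With a log2 fold change of at least 1 in size required as well, both WT31 comparisons were no longer called, and Ephb4 left the genes with 1 sign in all 6.

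Efna1, on chromosome 3 at 89271733 to 89281142, encodes ephrin-A1, the ligand of EphA2. It was low throughout. HCmel12 held 2.13, 1.79, 2.59, 3.75 and 3.09 CPM, and no library of another line exceeded 0.844 CPM. D4M, RET, WT31 and B16F10 luc2 followed with means of 0.632, 0.483, 0.364 and 0.334 CPM, and neighbours in that order were not called apart. HCmel12 was above D4M by a log2 fold change of 2.05 (-2.05 ± 0.26 for D4M against HCmel12, adjusted p = 1.1e-07, limma). HCmel12, lowest in Epha2, was thus highest in Efna1, while D4M, highest in Epha2, had the next mean of Efna1. The call between WT31 and D4M (-0.75 ± 0.33, adjusted p = 0.045) was lost without D4M replicate 1, 2 or 4 or WT31 replicate 2, 3 or 5, with library size only (adjusted p = 0.15), without the filter (0.066) and on log2(TPM + 0.1) or log2(TPM + 1) (0.14 and 0.18, limma).

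Efnb1, on chromosome X at 99136130 to 99148991, encodes ephrin-B1, which binds EphB receptors and is expressed in neural crest derivatives. D4M held 30.1, 33.7, 32.2, 26.0 and 28.9 CPM, above all libraries of the other lines. HCmel12 had 18.3, 18.8, 16.2, 12.6 and 16.3 CPM, and WT31 16.4, 16.3, 13.7, 16.5 and 15.95 CPM. These lines overlapped and did not differ beyond their spread (log2 fold change -0.05 ± 0.10, adjusted p = 0.66, limma). RET held 8.18 to 9.99 CPM and B16F10 luc2 5.51 to 8.12 CPM. Against D4M the log2 fold changes were -0.93 ± 0.09 for WT31, -2.11 ± 0.11 for B16F10 luc2 and -1.69 ± 0.10 for RET (adjusted p = 7.7e-10, 4.0e-15 and 5.8e-14, limma).

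Efnb2, on chromosome 8 at 8617434 to 8661242, encodes ephrin-B2, the ligand of EphB4 and a marker of arteries. It had the widest range of the ephrins described here. D4M held 128, 111, 118, 124 and 146 CPM (mean 126 ± 13.1 SD, n = 5). HCmel12 held 22.9, 19.8, 20.2, 10.9 and 12.8 CPM, and WT31 7.78, 8.39, 6.98, 6.77 and 4.87 CPM. B16F10 luc2 had 0.317, 0.332, 0.206, 0.577 and 0.346 CPM, and RET 0.0790, 0.111, 0.118, 0.200 and 0.0386 CPM. The lines were ordered D4M, HCmel12, WT31, B16F10 luc2, RET with no overlap between neighbours in CPM. Between B16F10 luc2 replicate 3 and RET replicate 4 the gap was 0.206 against 0.200 CPM, and each held 5 counts. B16F10 luc2 and RET were not called apart (1.61 ± 0.68, adjusted p = 0.051, limma). They were called apart with DESeq2 (0.001), edgeR's quasi-likelihood test (0.019), log2(TPM + 0.1) (0.018, limma) and the replicate number as a block (0.015, limma). Leaving out B16F10 luc2 replicate 3, RET replicate 4, D4M replicate 5, WT31 replicate 5 or any HCmel12 replicate also gave a call. Against D4M the log2 fold change was -4.19 ± 0.17 for WT31 (adjusted p = 9.8e-18, limma) and -8.45 ± 0.42 for B16F10 luc2 (adjusted p = 7.7e-16). RET, with 14 counts in its 5 libraries together, was below D4M by a ratio of pooled CPM of 1154 (95% counting interval 688 to 2112). Against HCmel12 the log2 fold changes were -1.28 ± 0.19 for WT31, -5.54 ± 0.43 for B16F10 luc2 and -7.15 ± 0.55 for RET (adjusted p = 1.1e-06, 1.3e-11 and 1.1e-11, limma). Since ephrin-B2 and EphB4 are known from vessels, 7 endothelial markers were set beside them. Of these, D4M had only Flt1 above 1 CPM (199.5 CPM) and HCmel12 only Kdr (30.9 CPM), and B16F10 luc2, the line lowest in Ephb4, had only Pecam1 (1.497 CPM). Cdh5, Tek, Emcn and Tie1 were below 0.2 CPM on average in all 5 lines, and the highest count of Pecam1 in a D4M library was 22.

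In HCmel12, replicates 4 and 5 had the lowest levels of Epha3, Epha7 and Efnb2 but the highest of Efna1. The melanocyte markers of HCmel12 replicate 4 summed to 17810 CPM, the most of that line, and those of replicate 5 to 12740 CPM. The labels name no batch, and whether the marker levels have a part in these differences was not tested.

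Levels of different genes were compared as TPM (transcript abundance divided by transcript length and scaled to 1000000 per library) over 24 libraries (D4M, n = 4; the TPM of D4M replicate 1 was not used here). D4M had the most receptor transcript, with 124 ± 13.96 TPM (SD) summed over the 14 receptor genes, against 28.0 ± 2.97 TPM in WT31, 33.8 ± 3.32 in HCmel12, 39.1 ± 4.93 in B16F10 luc2 and 51.1 ± 3.12 in RET. Epha2 made up 66.0% ± 2.42 of that sum in D4M, followed by Ephb4 with 17.96%. Epha3 led in RET with 58.0% ± 4.20 and in B16F10 luc2 with 52.6% ± 4.69. Ephb4 led in HCmel12 (61.9% ± 6.28) and WT31 (56.4% ± 2.55), ahead of Epha3 (27.4%) in the former and Epha5 (27.7%) in the latter. Each line thus paired Ephb4 with a leading EphA receptor, and this receptor was Epha2, Epha3 or Epha5.

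The ephrins differed in make-up as well. WT31 had 88.7 ± 4.63 TPM summed over the 8 ephrin genes, of which 77.0% ± 1.40 was Efna5, encoding ephrin-A5. D4M had 55.0 ± 5.13 TPM, of which Efnb2 was 63.6% ± 4.48 and Efnb1 23.03%. HCmel12 (30.6 ± 3.63 TPM) had no ephrin above 23.98% of its sum, with Efnb1 first, and B16F10 luc2 (23.7 ± 2.10) and RET (19.02 ± 0.896) were led by Efna5 at 52.1% and 54.9%. Set side by side, the EphA receptors of D4M summed to 83.4 TPM and its ephrin-A genes to 7 TPM, whereas in WT31 the EphA receptors summed to 10.4 TPM and the ephrin-A genes to 78.1 TPM. For the B class, D4M had 40.7 TPM of receptors and 48.0 TPM of ephrins, and B16F10 luc2 6.85 and 4.06 TPM. D4M and WT31 therefore stood at opposite ends of the ratio of EphA receptor to ephrin-A transcript.

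**Figure D3:**
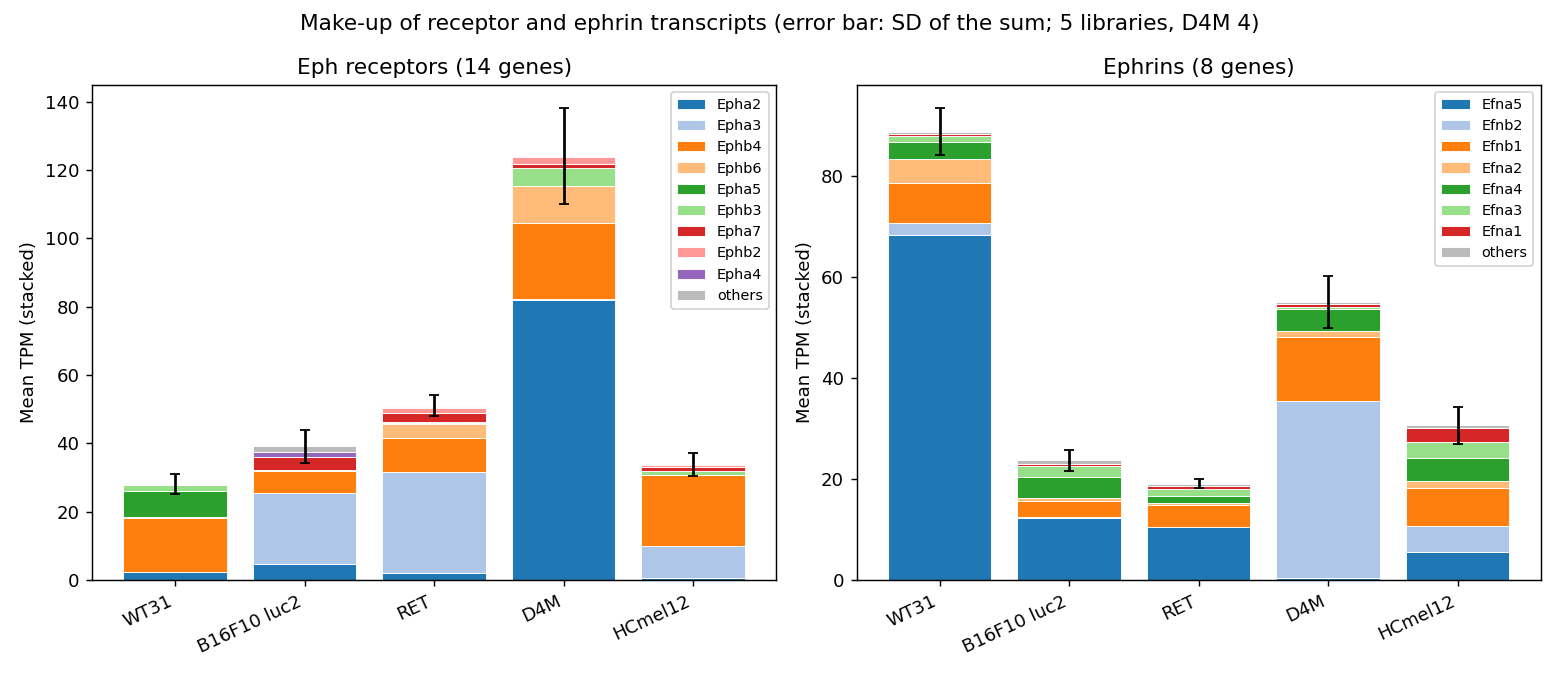
Mean TPM of the Eph receptor genes (left) and the ephrin genes (right) stacked by line, with genes under 1.5 TPM in every line pooled as others and error bars for the SD of the sum (5 libraries, D4M 4). The D4M receptor bar reaches 124 TPM and consists mainly of Epha2, and the WT31 ephrin bar reaches 88.7 TPM and consists mainly of Efna5.

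Of the 12 other family genes in the files, 8 were tested; Epha6, Epha8, Epha10 and Ephb1 had too few counts. Efna5 had 1 sign in all 6 comparisons of HIM-melanoma with LM-melanoma, which is 1 of 8 or 12.5%, close to the 12.9% over all genes tested. WT31 held 146, 149, 158, 147 and 166 CPM, and the means of B16F10 luc2, RET, HCmel12 and D4M were 29.8, 25.7, 14.1 and 1.21 CPM. The smallest of the 6 differences was that of RET against HCmel12 (log2 fold change 0.88 ± 0.09, adjusted p = 5.7e-09, limma) and the largest that of WT31 against D4M (7.01 ± 0.20, adjusted p = 6.2e-21). Efna2, encoding ephrin-A2, was also highest in WT31 at 5.97 ± 0.966 CPM, against 0.635 to 2.01 CPM in the other lines. Ephb3, encoding another ephrin-B receptor, reached 16.9 ± 1.41 CPM in D4M, 3.91 in WT31 and 2.87 in HCmel12, had 5 counts over the RET libraries and none in B16F10 luc2. With 3 counts per library as the floor, D4M was at least 139-fold higher than B16F10 luc2. Ephb6, whose receptor lacks kinase activity, reached 24.1 ± 2.92 CPM in D4M and 9.12 ± 0.563 in RET and had no counts in HCmel12, where D4M was at least 199.7-fold higher on the same floor. D4M thus held the highest mean of Ephb2, Ephb3, Ephb4 and Ephb6, though for Ephb4 the difference from HCmel12 was not called.

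**Figure D4:**
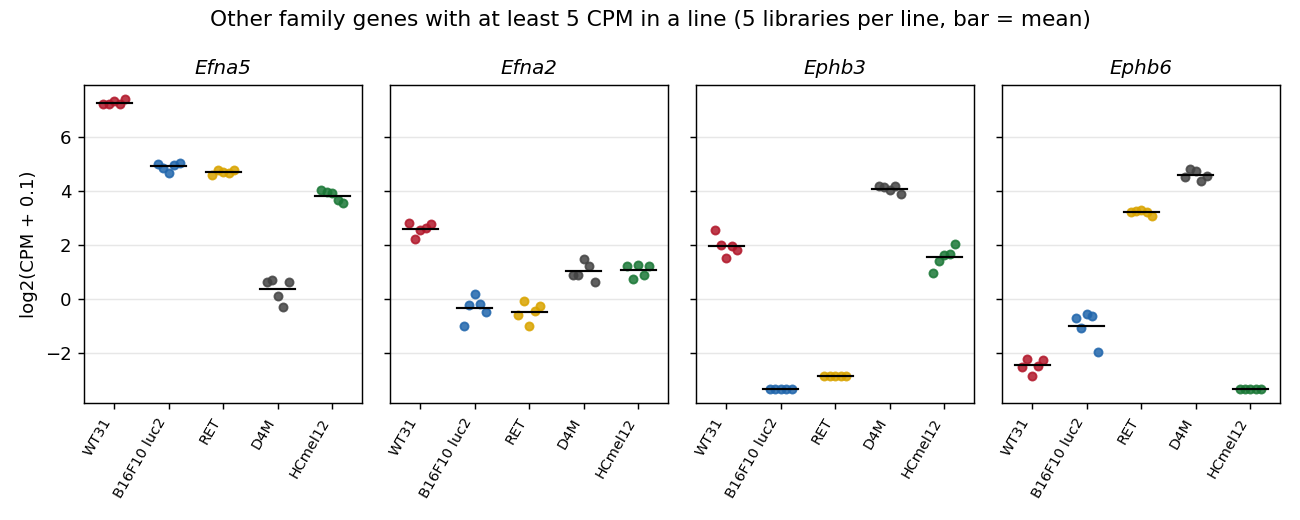
Levels of the 4 other family genes with a mean of at least 5 CPM in some line, as log2(CPM + 0.1) with 1 point per library and a bar at the mean. Efna5 and Efna2 are highest in WT31, and Ephb3 and Ephb6 are highest in D4M, with no counts of Ephb3 in B16F10 luc2 or of Ephb6 in HCmel12.

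Genes of the signalling downstream of the receptors were listed to set beside them. Of 30 tested genes of forward signalling, 25 were called between WT31 and D4M (10 higher, 15 lower), 26 between B16F10 luc2 and D4M (5 higher, 21 lower) and 29 between RET and D4M (6 higher, 23 lower), with medians of -0.22, -0.69 and -0.42 on the log2 scale against -0.01, 0 and 0.01 over all genes. These are 83.3%, 86.7% and 96.7% of the list, against 76.1%, 77.7% and 77.1% of all genes tested. Against HCmel12, 25 were called for WT31 (14 higher, 11 lower, 83.3%, background 70.4%). For B16F10 luc2 there were 22 (9 higher, 13 lower, 73.3%, background 69.1%) and for RET 23 (9 higher, 14 lower, 76.7%, background 67.2%). The medians were 0.17, -0.16 and -0.20, and differences between the comparisons were not tested. With 1 sign in all 6 comparisons there were 7 of the 30 (23.3%), against 12.9% of all genes. Tiam1, which activates Rac, was higher in HIM-melanoma, with means of 59.3, 33.9 and 20.9 CPM (WT31, B16F10 luc2, RET), against 10.5 in HCmel12 and 0.0980 in D4M. Chn2, encoding a chimaerin that turns Rac off, was higher too, at 31.7 to 44.0 CPM against 8.94 in HCmel12 and 0.522 in D4M. Vav3, an exchange factor for small GTPases, was lower, with 27.0 ± 6.48 CPM in D4M, 1.91 ± 0.812 in HCmel12 and at most 0.0988 in the HIM-melanoma lines. Kalrn, another exchange factor, was likewise lower, with 7.74 CPM in D4M, 1.56 in HCmel12 and at most 0.260 elsewhere. Cbl, Inppl1 and Rhoa made up the rest and were lower by log2 fold changes between -0.96 and -0.13. Members of opposite action, such as Tiam1 and Chn2, moved in the same direction. Of 12 tested genes of reverse signalling, 10, 9 and 11 were called against D4M for WT31 (7 higher, 3 lower), B16F10 luc2 (4 and 5) and RET (6 and 5). These are 83.3%, 75% and 91.7%, with medians of 0.47, -0.08 and 0.11. Against HCmel12 there were 9 (5 higher, 4 lower), 7 (1 and 6) and 8 (3 and 5), or 75%, 58.3% and 66.7%, with medians of 0.16, -0.13 and 0.06. Backgrounds are those given above. A single sign in all 6 was found for 1 gene (8.33%, against 12.9% of all genes), the Dishevelled gene Dvl2. It was lower in HIM-melanoma, at 33.1 to 39.8 CPM against 50.03 in D4M and 53.8 in HCmel12.

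For each of the 10 genes, the 2 most similar genes were sought among tested genes with a symbol, leaving out Eph and ephrin genes. Similarity was the Pearson correlation of log2 CPM over the 25 libraries, which form 5 lines and are not independent. Epha2 was closest to Timp1 (r = 0.985) and Cspg4 (r = 0.983), Epha3 to Tbx4 (r = 0.987) and Arfgef3 (r = 0.985), and Epha7 to Smyd5 (r = 0.985) and Taf9b (r = 0.981). Timp1, a metalloproteinase inhibitor, had 588 CPM in D4M and at most 19.6 CPM elsewhere, and Tbx4, a T-box factor, 38.0, 36.8 and 22.7 CPM in B16F10 luc2, RET and HCmel12 and at most 0.391 CPM in D4M and WT31. For Ephb4 these were Flot1 (r = 0.980) and Itpr3 (r = 0.979), for Efnb1 Ints5 (r = 0.979) and Bmp1 (r = 0.973), and for Efnb2 Ralgds and Faf2 (both r = 0.980). The likeness was lower for Ephb2 with Cyp7b1 (r = 0.966) and Ddx60 (r = 0.962), Epha5 with Limd1 (r = 0.960) and Smox (r = 0.946), Efna1 with Ndrg2 (r = 0.957) and Iqce (r = 0.933) and Epha4 with Sf3b6 (r = 0.952) and Slc25a3 (r = 0.950). Cyp7b1 was itself low, at 0 CPM in WT31 and B16F10 luc2 and at most 0.601 CPM on average in the other lines.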

How the data were processed

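Cultured cells of 5 murine melanoma lines were sequenced, with 5 libraries per line named as biological replicates. Per the labels, the authors trimmed reads with Trim Galore 0.6.4 and quantified transcripts with kallisto (given as 0.4.6) on GRCm38.p6, and deposited estimated counts per gene and TPM; here 24 TPM files were used. As kallisto divides reads between transcripts by estimation, 24.5% to 26.6% of the count values of a library were not whole, and they were used unrounded in voom.

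Samples were grouped by line; part of the D4M genotype is not reported here. Genes were kept with edgeR 4.0.16 filterByExpr by line (15247 of 55385), scaled by TMM, and all 25 libraries were fitted with voom and limma 3.58.1 in R 4.3.3 with 1 mean per line, without covariates, for 10 pairs of lines, with Benjamini-Hochberg adjustment within each pair. DESeq2 1.42.0 and edgeR's quasi-likelihood test on rounded counts were alternatives. CPM were computed from TMM-scaled counts. The 95% counting intervals of ratios of summed counts are exact. The fitting code was tested on simulated data. Depth was 24199083 to 25843286 counts per library. Alternatives in scaling, filter, test, value, threshold and left-out libraries are given at the end.

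The 10 genes and all lists were chosen with earlier results of these data known. Named were the 10 genes, and other family genes with 1 sign in all 6 comparisons or a line mean of at least 5 CPM. From each signalling list, up to 4 genes with 1 sign in all 6 and the largest mean absolute change were named, with the rest of that count. Also named were the 2 genes outside the family most correlated with each of the 10. Gene positions are from GENCODE on GRCm38, where gene identifiers of all 10 matched. Transcripts of the 10 genes share 0% to 1.88% of their 31-base words with other genes. Ephb4, Epha5 and Epha7 each overlap a gene on the opposite strand, and counting by strand is not given in the sources used here.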

Additional observations from a re-analysis of the deposited data

Results flagged for a closer look

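Among the 50 groups of 5 libraries (10 genes in 5 lines), 4 held a library far from the other 4 by Dixon's test, where chance marks about 1 in 20 groups. Epha4 in HCmel12 was 0.0797 CPM (2 counts) in replicate 2 and 0 in the rest. With 4 libraries at 0 any count is marked, so this group says nothing and 3 remain to set against chance. Ephb2 in WT31 was 0.500 CPM in replicate 4, and the nearest library had 0.304 CPM. Ephb4 in D4M reached 90.3 CPM in replicate 3 against 68.2 CPM in the next library. Efnb1 in WT31 fell to 13.7 CPM in replicate 3, with 15.95 CPM in the nearest.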

How the results depend on the processing

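The number of the 10 genes called was within 1.5 times its value in all 10 pairs of lines under each alternative, with 1 exception: between B16F10 luc2 and RET, 4 instead of 7 were called when the log2 fold change also had to be 1 or more in size. Leaving out each library in turn gave 8 to 10 called between WT31 and D4M, 9 to 10 between B16F10 luc2 and D4M, 9 between RET and D4M, 8 to 9 between WT31 and HCmel12, 9 to 10 between B16F10 luc2 and HCmel12, 10 between RET and HCmel12, 8 to 9 between WT31 and B16F10 luc2, 8 between WT31 and RET, 6 to 8 between B16F10 luc2 and RET and 7 to 9 between D4M and HCmel12. The number with 1 sign in all 6 comparisons was 2 or 3. It was 2 with DESeq2, edgeR's quasi-likelihood test, either TPM scale, no filter, only the 2 lines of a comparison, an adjusted p under 0.01 or the fold change limit, which removed Ephb4, and without B16F10 luc2 replicate 4, D4M replicate 2 or 5, or HCmel12 replicate 1, 4 or 5.

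Signs turned in 3 differences that were not called. For Efnb1 in WT31 against HCmel12 (-0.05) the value was 0.11 on log2(TPM + 0.1), 0.10 on log2(TPM + 1) and -0.14 to 0 with single libraries left out, reaching 0 without WT31 replicate 3. For Ephb4 in D4M against HCmel12 (0.17) it was -0.01 with library size only. For Epha5 in D4M against HCmel12, both at the detection limit, so that its fold change (-0.01) is not read, it was 0.56 with DESeq2, 0.51 with edgeR, 0 on log2(TPM + 1), 0.05 with the replicate block, 0.04 with rounded counts and -0.50 to 0.39 with single libraries left out, above 0 without D4M replicate 2 or 5 or HCmel12 replicate 2, 3 or 4. The cause was not tested. Scaling by library size only moved the median of all genes by 0.225 (WT31), 0.154 (B16F10 luc2) and 0.203 (RET) against D4M and by -0.177 for D4M against HCmel12, and by less than 0.1 elsewhere. A mean of at least 1 CPM removed Efna1.

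Same-numbered libraries did not deviate together: the correlation of their deviations averaged -0.0035 and exceeded 0.1 in 1 of 50 pairs, and 6 of 25 libraries correlated best with their own number. With the replicate block, 10 genes were called between WT31 and D4M, with Epha3 added, and 8 between B16F10 luc2 and RET, with Efnb2 added. The number with 1 sign in all 6 comparisons was 3. Depth limits Epha4, Epha5 and Efna1 in most lines, where a level rests on a few counts.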
